A study of Homo sapiens with 4 samples.

Results

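The transcripts of 9 tubulin genes and of the stathmin gene STMN1 were followed in HT-29 and NCM460 cells with and without sturgeon chondroitin sulfate (SCS), a sulfated glycosaminoglycan. The 10 genes were taken by name from the table of all genes: the alpha tubulins TUBA1A, TUBA1B, TUBA1C and TUBA4A, the beta tubulins TUBB, TUBB2A, TUBB3, TUBB4B and TUBB6, and STMN1. They are 10 of the 18650 loci with at least 1 fragment in any library, and 9 of them had fragments in all 4 libraries. The exception was TUBB6, with none in either HT-29 library. HT-29 is a line from a human colorectal cancer and NCM460 is the line the study used as normal colon cells. Each line gave 1 untreated control library and 1 library after 24 h with 100 μg/mL SCS. With 1 library per condition there was no replicate, so no test between conditions was made and no p-value is given. Each interval below covers counting error only, at 95%. In such bulk libraries, fewer cells that express a gene and less RNA of that gene per cell cannot be told apart.

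Alpha and beta tubulin pair into the heterodimer from which microtubules are built, and these form the mitotic spindle and the tracks of intracellular transport. Human cells carry several genes for each, called isotypes, whose proteins differ most in their acidic C-terminal tails, where motors, microtubule-associated proteins and modifying enzymes bind. Stathmin binds free tubulin dimers and promotes the shrinking of microtubules, and it is switched off by phosphorylation as cells enter mitosis.

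The ends of the coding sequences of 7 isotypes are shown because they encode the C-terminal tails. Each run is the last 54 coding bases before the stop codon, 5′ to 3′, of the principal transcript in GENCODE release 29 (GRCh38). Capitals mark bases that lie in no 12-base word also found in the coding sequence of another of the 10 genes.
TUBA1C: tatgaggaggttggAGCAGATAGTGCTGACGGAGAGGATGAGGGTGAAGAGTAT
TUBA4A: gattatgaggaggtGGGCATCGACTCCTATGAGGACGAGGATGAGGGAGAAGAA
TUBB: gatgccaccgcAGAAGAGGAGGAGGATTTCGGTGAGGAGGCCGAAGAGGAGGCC
TUBB2A: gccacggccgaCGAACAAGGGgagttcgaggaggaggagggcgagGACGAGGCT
TUBB3: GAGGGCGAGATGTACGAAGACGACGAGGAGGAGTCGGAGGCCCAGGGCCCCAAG
TUBB4B: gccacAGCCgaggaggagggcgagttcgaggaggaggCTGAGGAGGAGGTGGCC
TUBB6: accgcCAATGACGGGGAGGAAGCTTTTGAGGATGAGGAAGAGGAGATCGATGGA

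Of the 7 runs shown, that of TUBB3 is in capitals over all 54 bases, and that of TUBB2A over 19. TUBA1C ends with a tyrosine codon, the residue that carboxypeptidases remove and the ligase TTL puts back, and TUBA4A ends with a glutamate codon. Over the whole coding sequence TUBA1A and TUBA1B were identical at 97.19% of aligned bases, TUBA1B and TUBA1C at 96.82%, and TUBA1A and TUBA1C at 95.86%. The beta isotypes were farther apart, from 80.98% between TUBB and TUBB6 to 87.78% between TUBB2A and TUBB3. A window as long as 1 read, as the study's methods give it, separates most of them better than their coding identity does. No such window of the TUBB6 or STMN1 transcript, and 1.26% of those of TUBB4B, occurs in a transcript of another gene. The share was 19.2% for TUBA1A, 19.6% for TUBB, 25.3% for TUBA4A and 26.7% for TUBA1C. It was 52.2% for TUBB2A, nearly all with its neighbour TUBB2B. It was 67.1% for TUBA1B, most of it with an antisense gene, and 88.9% for TUBB3, with a readthrough transcript that joins MC1R to TUBB3.

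The positions are those of the table, on GRCh38. TUBA1B (ENSG00000123416), TUBA1A (ENSG00000167552) and TUBA1C (ENSG00000167553) lie next to each other on chromosome 12, from 49127782 to 49131397, from 49184796 to 49189324 and from 49188736 to 49274603. TUBA4A (ENSG00000127824) is on chromosome 2 from 219249711 to 219278170, TUBB2A (ENSG00000137267) on chromosome 6 from 3153669 to 3157526, TUBB4B (ENSG00000188229) on chromosome 9 from 137241213 to 137243707 and TUBB6 (ENSG00000176014) on chromosome 18 from 12307669 to 12344320. STMN1 (ENSG00000117632), on chromosome 1 from 25884181 to 25906991, shares its row with the microRNA gene MIR3917. TUBB is listed in 8 rows, of which 1 holds values and 7 are at 0. That row (ENSG00000235067) is placed on an alternate contig of the major histocompatibility complex. TUBB3 (ENSG00000258947), on chromosome 16 from 89921392 to 89938761, has the same values as TCF25, MC1R and a readthrough gene. This shared value is called the TUBB3 locus, since its fragments cannot be assigned to TUBB3. TUBA1B shares 1309 of its 3574 exonic bases with the antisense gene RP11-386G11.10 on the opposite strand. The library kit is not stated to keep the strand, so fragments of that pair cannot be told apart either.

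The libraries held 1156568 to 1654764 fragments, of which the mitochondrial genome took 13.8% to 62.3%. Nuclear fragments were 1061700 without and 1383424 with SCS in HT-29, and 507692 without and 621582 with SCS in NCM460. Levels are given as CPM, fragments relative to the library total scaled by edgeR's TMM factors, and levels of different genes are compared only as FPKM, the authors' values per kilobase of transcript. Across 9356 loci the log2 fold changes of SCS over control in NCM460 cells went down with transcript GC content, with a Spearman's rho of -0.73. Across 9340 loci in HT-29 cells rho was -0.15, and between the control libraries of the lines it was -0.59 across 9534 loci. These correlations are across genes, which are not independent replicates. The principal transcripts of the beta isotypes other than TUBB hold 59.3% to 62.6% GC, against 48.0% in STMN1 and 51.6% to 52.4% in TUBA1A, TUBA1B, TUBA1C and TUBB. Values adjusted for this dependence, by subtracting a lowess curve of the fold change on GC content (the GC trend), therefore stand beside the results for the members and the lists.

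TUBB had the most fragments of the 10 genes in every library: 950 and 320 in HT-29 cells without and with SCS, and 583 and 547 in NCM460 cells. In the same order of libraries TUBB4B, which encodes a widely expressed beta isotype, had 707, 273, 421 and 263 fragments, and TUBA1B, the main alpha isotype of many cultured cells, had 484, 140, 255 and 264. Both were lowest, as a level, in HT-29 cells with SCS, as the plot of levels by library shows. TUBA1C had 244, 153, 171 and 168 fragments, and STMN1 had 142, 40, 99 and 147. The TUBB3 locus had 105, 191, 300 and 186 fragments. TUBA1A, TUBA4A and TUBB6 divided the lines: TUBA1A had 9 and 11 fragments in HT-29 cells against 109 and 73 in NCM460 cells, TUBA4A had 105 and 79 against 12 and 6, and TUBB6 had 0 and 0 against 65 and 40. TUBB2A was low in all 4 libraries, with 16, 24, 19 and 11 fragments.

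**Figure D1:**
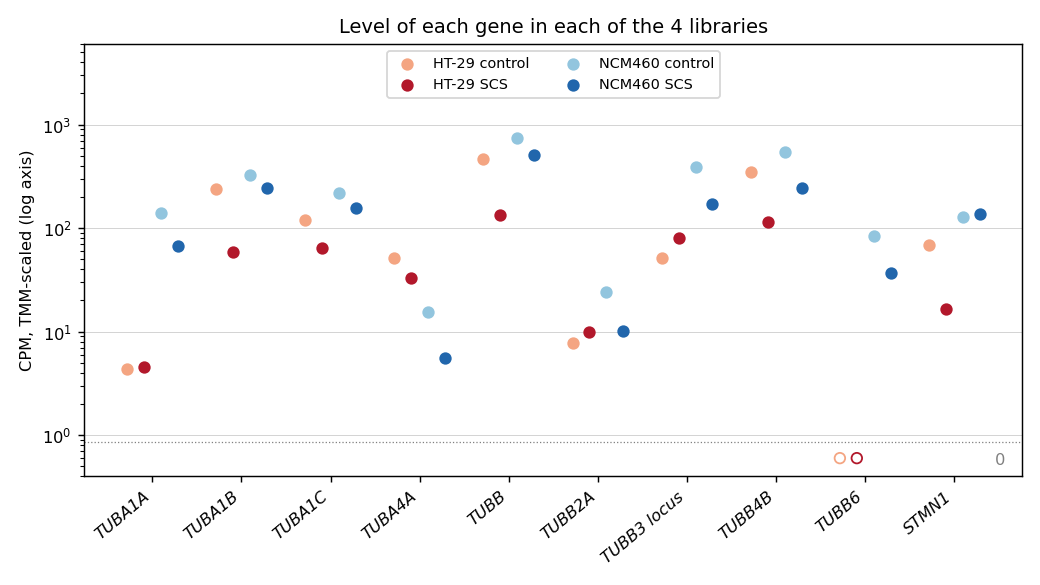
Level of each gene in CPM, scaled by TMM factors, on a log axis, with 1 point for each of the 4 libraries; open circles under the dotted line are libraries with 0 fragments. TUBB, TUBB4B, TUBA1B and STMN1 are lowest in HT-29 cells with SCS, TUBA4A is higher in both HT-29 libraries, and TUBB6 has no fragment in either of them.

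On the FPKM scale, which allows genes to be set in order, the HT-29 control was led by TUBA1B at 214 FPKM (interval 195 to 234) and TUBB4B at 209 (194 to 225), whose intervals overlap. They were followed by TUBB at 136 and TUBA1C at 118, which overlap too, then by STMN1 at 46.1, the TUBB3 locus at 26.8 and TUBA4A at 21.3, the last pair overlapping. TUBB2A at 4.29 and TUBA1A at 2.77 came last among the genes above 0. In HT-29 cells with SCS the 5 highest lay close together, TUBA1C at 63.7, TUBB4B at 55.2, the TUBB3 locus at 51.9, TUBA1B at 47.8 and TUBB at 38.3, and each overlapped the next. TUBA4A at 13.9, STMN1 at 8.43, TUBB2A at 4.64 and TUBA1A at 2.73 followed, again each overlapping the next.

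The NCM460 control was led by TUBB4B at 387 FPKM (351 to 426), which lay above TUBA1B at 275 (242 to 311). TUBB at 252, the TUBB3 locus at 249 and TUBA1C at 212 followed without a gap beyond counting error between neighbours, and STMN1 at 138 overlapped TUBB6 at 117. TUBA1A at 70.7 stood below both, and TUBB2A at 16.1 and TUBA4A at 15.5 closed the order. In NCM460 cells with SCS, TUBA1B led at 218 (192 to 246). TUBA1C at 160, TUBB at 153, TUBB4B at 141, the TUBB3 locus at 124.6 and STMN1 at 110 each overlapped the next. TUBB6 at 33.5 and TUBA1A at 29.1 overlapped, as did TUBB2A at 7.47 and TUBA4A at 3.40. TUBA4A thus held the last place in both NCM460 libraries and the seventh or sixth place in the HT-29 libraries.

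In HT-29 cells the most abundant tubulins and stathmin fell together with SCS. Calls required a difference past 1.5-fold and a counting interval that left out no change. Of the 9 members that could be tested, 6 were called lower and 1 higher, where 14.8% of all 12168 loci tested were called lower and 16.8% higher. TUBA1B went from 237 to 58.3 CPM (log2 fold change -2.0, -2.30 to -1.75), and STMN1 went from 69.4 to 16.6 CPM (log2 fold change -1.98, -2.60 to -1.54). TUBB went from 464 to 133 CPM (log2 fold change -1.79, -1.99 to -1.62), and TUBB4B from 346 to 114 CPM (log2 fold change -1.59, -1.81 to -1.40). These 4 genes thus stood at 3.02-fold to 4.0-fold lower levels with SCS, with no interval reaching the fold of 1.5.

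The fall was smaller in the other alpha isotypes. TUBA1C went from 119 to 63.7 CPM (log2 fold change -0.89, -1.21 to -0.61), whose interval does not overlap that of TUBA1B although the genes are near copies in sequence. TUBA4A went from 51.3 to 32.9 CPM (log2 fold change -0.62, -1.08 to -0.21), just past the threshold. The TUBB3 locus was the one called higher, from 51.3 to 79.5 CPM (log2 fold change 0.62, 0.28 to 0.99), also just past the threshold and not assignable to TUBB3. Its call was lost with nuclear totals, at 0.47, and with the expression or the length trend subtracted, at 0.57 and 0.58. TUBB2A, at 7.82 and 9.99 CPM, and TUBA1A, at 4.40 and 4.58 CPM, were not called, and the intervals of their log2 fold changes, -0.62 to 1.36 and -1.35 to 1.51, leave room for changes past 1.5-fold in either direction. TUBB6 had 0 of 1654764 and 0 of 1605372 fragments, so nothing can be said of a change; 3 fragments, the most that a count of 0 allows, correspond to 1.47 and 1.25 CPM.

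After the GC trend was subtracted, 5 members were called lower and 1 higher in HT-29 cells, against 15.6% and 14.9% of 12106 loci. TUBA4A was the call lost, at a log2 fold change of -0.51. The other values moved little, to -1.93 for TUBA1B, -1.95 for STMN1, -1.73 for TUBB, -1.52 for TUBB4B, -0.83 for TUBA1C and 0.65 for the TUBB3 locus. Genes of the G2 and M phases moved in the same direction: of 12 such markers 11 were called lower in HT-29 cells with SCS, and their summed level went from 735 to 259 CPM. The share of mitochondrial fragments went from 35.8% in the HT-29 control to 13.8% with SCS. The part of either in the result was not tested.

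In NCM460 cells the levels of most tubulins were lower with SCS, but STMN1 was not, and most of the calls were lost when the GC trend was subtracted. Of the 10 members 5 were called lower and 0 higher, where 13.8% and 15.4% of 12657 loci were. TUBB4B went from 541 to 243 CPM (log2 fold change -1.15, -1.38 to -0.93), and the TUBB3 locus from 385 to 172 CPM (log2 fold change -1.16, -1.44 to -0.89). TUBB6, a beta isotype of many non-neuronal tissues, went from 83.5 to 37.0 CPM (log2 fold change -1.15, -1.78 to -0.58). TUBA1A went from 140 to 67.5 CPM (log2 fold change -1.04, -1.50 to -0.61). TUBB2A, with 19 and 11 fragments, went from 24.4 to 10.2 CPM (log2 fold change -1.17, -2.48 to -0.12).

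TUBA1B, STMN1 and TUBB, the 3 genes that fell most in HT-29 cells, were not called in NCM460 cells, nor was TUBA1C. TUBA1B stood at 327 and 244 CPM (log2 fold change -0.42, -0.68 to -0.17), TUBB at 749 and 506 CPM (log2 fold change -0.56, -0.74 to -0.39), and TUBA1C at 220 and 155 CPM (log2 fold change -0.50, -0.81 to -0.18). Their intervals exclude no change but their size is under 1.5-fold. STMN1 stood at 127 and 136 CPM (log2 fold change 0.10, -0.28 to 0.48). TUBA4A, with 12 and 6 fragments, stood at -1.29 (-3.17 to 0.05), not called. For STMN1, TUBA1B, TUBB, TUBB4B and the TUBB3 locus the intervals in the lines do not overlap, and the difference between the lines was not tested.

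With the GC trend subtracted, 1 member was called lower and 0 higher in NCM460 cells, where 5.7% and 5.59% of 12600 loci were. The 1 was TUBA1A, at a log2 fold change of -0.81. The log2 fold changes of the GC-rich isotypes all moved toward 0, to -0.48 for TUBB4B, -0.42 for the TUBB3 locus, -0.47 for TUBB6 and -0.50 for TUBB2A. TUBB stood at -0.30, TUBA1C at -0.28, TUBA1B at -0.13 and STMN1 at -0.13. The number called also turned on the scaling between libraries: it was 8 lower under DESeq2's size factors and under the authors' own scaling, and 0 when libraries were scaled by their totals only, which moved the median of all loci from 0.03 to 0.57 on the log2 scale. The share of mitochondrial fragments went from 62.3% in the control to 46.3% with SCS, and its part in the result was not tested.

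**Figure D2:**
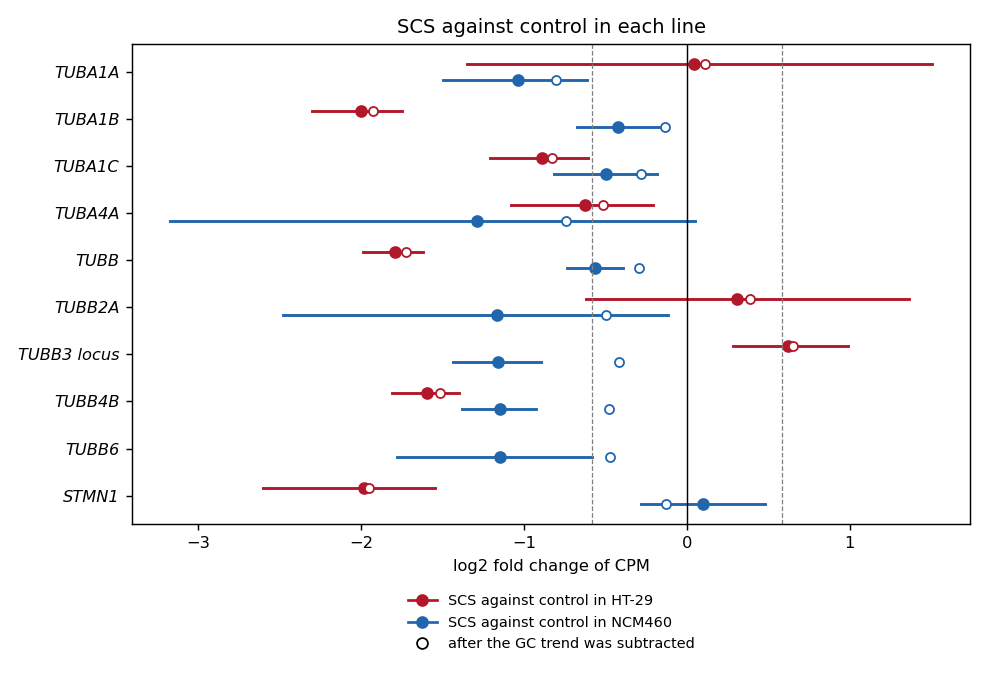
Log2 fold change of CPM, SCS over control, for each gene in HT-29 (red) and NCM460 (blue) cells; bars are exact 95% counting intervals, open circles the values after the GC trend was subtracted, and dashed lines a fold of 1.5. TUBA1B, TUBB, TUBB4B and STMN1 lie at -1.59 or below in HT-29 cells, and STMN1 lies at 0.10 in NCM460 cells.

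Between the lines, isotypes differed in kind as well as in amount. The comparisons of the lines use the same 4 libraries as those of SCS, so they are not independent of them. In the control libraries 8 members were called lower in HT-29 cells and 1 higher, where 23.1% and 25.3% of 12691 loci were. TUBB6 was 56.9-fold lower in HT-29 cells when its 0 fragments there are put at the floor of 3 fragments per library. The counting interval of its log2 fold change ended at -5.49, and at -4.75 with the GC trend subtracted. TUBA1A, an alpha isotype best known from developing neurons, stood at 4.40 CPM in HT-29 and 140 CPM in NCM460 cells (log2 fold change -4.64, -6.16 to -4.01). TUBA4A went the other way, with 51.3 CPM in HT-29 and 15.4 CPM in NCM460 cells (log2 fold change 1.66, 0.87 to 2.73). In FPKM the controls stood at 21.3 (17.4 to 25.8) and 15.5 (7.99 to 27.0), which overlap, so this difference depends on the measure. The FPKM value of 1 fragment of TUBA4A in the HT-29 control was 0.157 of that in the NCM460 control. The median of this ratio was 0.291 over 3462 loci.

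The abundant isotypes differed less. In controls the log2 fold change of HT-29 over NCM460 was -0.87 (-1.17 to -0.59) for TUBA1C, -0.86 (-1.25 to -0.49) for STMN1, -0.69 (-0.84 to -0.54) for TUBB, -0.64 (-0.82 to -0.47) for TUBB4B and -0.47 (-0.69 to -0.24) for TUBA1B, which was not called. The TUBB3 locus stood at -2.88 (-3.24 to -2.58) and TUBB2A at -1.50 (-2.70 to -0.60). With the GC trend subtracted 5 members were called lower and 1 higher, where 20.3% and 17% of 12648 loci were. TUBA1A (-4.46), TUBB6, the TUBB3 locus (-1.90), STMN1 (-1.19) and TUBA1C (-0.71) were those called lower, and TUBA4A (2.15) was called higher. TUBB4B changed sign under that setting, to 0.09. Scaling by library totals only put TUBB, TUBB4B, TUBA1C and STMN1 higher in HT-29 cells, at log2 fold changes of 0.41, 0.45, 0.21 and 0.22, and TUBA1B at 0.62, with the median of all loci at 1.04.

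With SCS in both lines, 8 members were again called lower in HT-29 cells and 1 higher, where 22.4% and 24.2% of 13050 loci were. The abundant isotypes were then farther apart: the log2 fold change was -2.94 (-3.57 to -2.52) for STMN1, -2.04 (-2.37 to -1.77) for TUBA1B, -1.92 (-2.13 to -1.72) for TUBB, -1.27 (-1.61 to -0.96) for TUBA1C and -1.09 (-1.35 to -0.85) for TUBB4B. TUBA1A stood at -3.56 (-4.95 to -2.96) and the TUBB3 locus at -1.10 (-1.41 to -0.81). TUBB6 was 29.6-fold lower in HT-29 cells against the same floor, and the interval of its log2 fold change ended at -4.52. TUBA4A stood higher, at 2.32 (1.38 to 4.06), and TUBB2A was not called, at -0.02 (-1.11 to 1.15). The GC trend left 8 lower and 1 higher called here, where 24.5% and 21.8% of 12988 loci were.

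**Figure D3:**
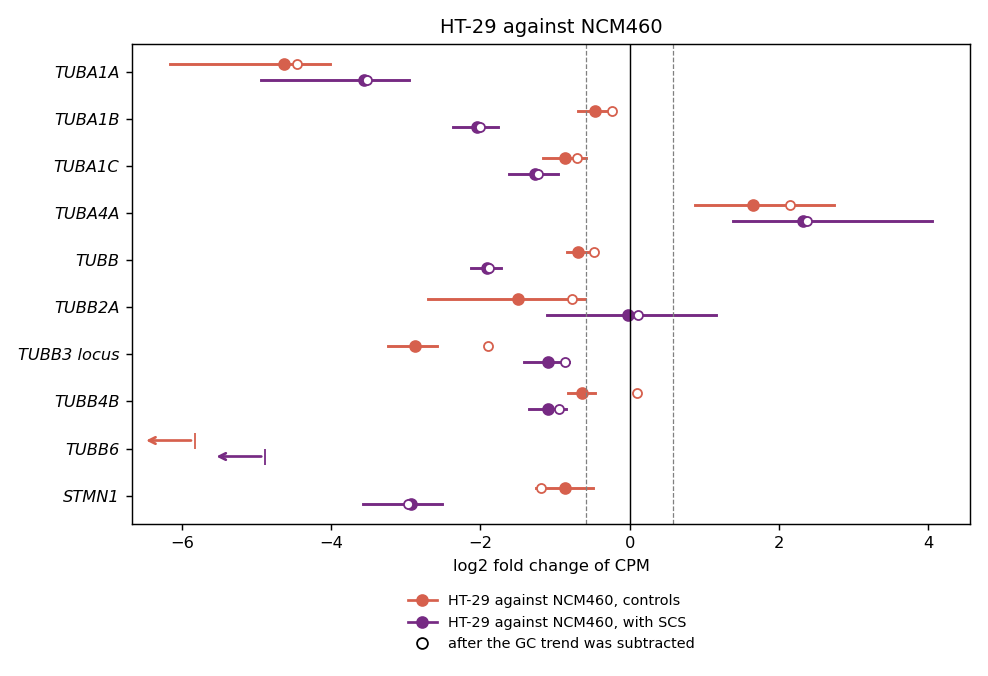
Log2 fold change of CPM, HT-29 over NCM460, for each gene in the control libraries (orange) and with SCS (purple); bars are exact 95% counting intervals, open circles the values after the GC trend was subtracted, dashed lines a fold of 1.5, and arrows mark TUBB6, whose fold was taken against a floor of 3 fragments. TUBA1A and TUBB6 lie far to the left and TUBA4A to the right in both comparisons.

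Isotype use was compared as the share of each gene in the summed FPKM of the measured members of its family. Among the alpha tubulins of the HT-29 control, TUBA1B took 60.0%, TUBA1C 33.2%, TUBA4A 5.98% and TUBA1A 0.778%. With SCS the first pair changed places, TUBA1C at 49.7% and TUBA1B at 37.3%, and TUBA4A stood at 10.8% and TUBA1A at 2.13%. In plain fragments TUBA1B took 57.5% (54.1% to 60.8%) of 842 alpha fragments in the control and 36.6% (31.7% to 41.6%) of 383 with SCS, so these intervals do not overlap. TUBA1C took 28.98% (25.9% to 32.2%) and 39.9% (35.0% to 45.0%) of the same fragments. With SCS the intervals of TUBA1B and TUBA1C overlap, so their order there is within counting error. These shares use the row of TUBA1B without its antisense gene. Counted with that gene, TUBA1B had 266 fragments with SCS against 153 of TUBA1C, so the change of places depends on that choice.

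In NCM460 cells the alpha shares were nearer to each other with and without SCS. TUBA1B took 48.0% of the FPKM in the control and 53.1% with SCS, and TUBA1C took 37.0% and 39.0%. TUBA1A, nearly missing from HT-29 cells, took 12.3% and 7.09%. In fragments it took 19.9% (16.7% to 23.5%) of 547 and 14.3% (11.4% to 17.6%) of 511, which overlap. TUBA4A took 2.70% and 0.830%, below its share in either HT-29 library. The difference of the lines in the TUBA1A share was 11.6 percentage points in controls and 4.96 with SCS.

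Among the beta tubulins of the HT-29 control, TUBB4B took 55.6% of the FPKM and TUBB 36.2%, with 7.13% for the TUBB3 locus, 1.139% for TUBB2A and 0% for TUBB6. With SCS, TUBB4B took 36.8%, TUBB 25.5% and the TUBB3 locus 34.6%. Since that locus holds other genes, the shares were also taken without it, which was decided with the values known. TUBB then took 38.9% in the control and 39.0% with SCS, TUBB4B 59.8% and 56.3%, and TUBB2A 1.23% and 4.73%. The shift of beta shares with SCS in HT-29 cells was thus largely that of the merged row.

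In NCM460 cells TUBB6 took 11.4% of the beta FPKM in the control and 7.29% with SCS, and in fragments 4.68% (3.63% to 5.93%) of 1388 and 3.82% (2.74% to 5.17%) of 1047. In HT-29 cells it had 0 of 1778 and 0 of 808 beta fragments, with upper bounds of 0.207% and 0.456%. TUBB4B took 37.9% of the FPKM in the control and 30.7% with SCS, TUBB 24.7% and 33.3%, the TUBB3 locus 24.4% and 27.1%, and TUBB2A 1.58% and 1.62%. In fragments TUBB went from 42.0% (39.4% to 44.7%) to 52.2% (49.2% to 55.3%) and TUBB4B from 30.3% (27.92% to 32.8%) to 25.1% (22.5% to 27.86%), and neither pair of intervals overlaps, though that of TUBB4B nearly does. The shares were not adjusted for GC content. With the GC trend subtracted, the log2 fold changes with SCS in NCM460 cells were -0.30 (-0.47 to -0.13) for TUBB and -0.48 (-0.71 to -0.25) for TUBB4B, which overlap. By these shares both lines used TUBB and TUBB4B as the main beta isotypes outside the merged row, and NCM460 cells added TUBB6.

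**Figure D4:**
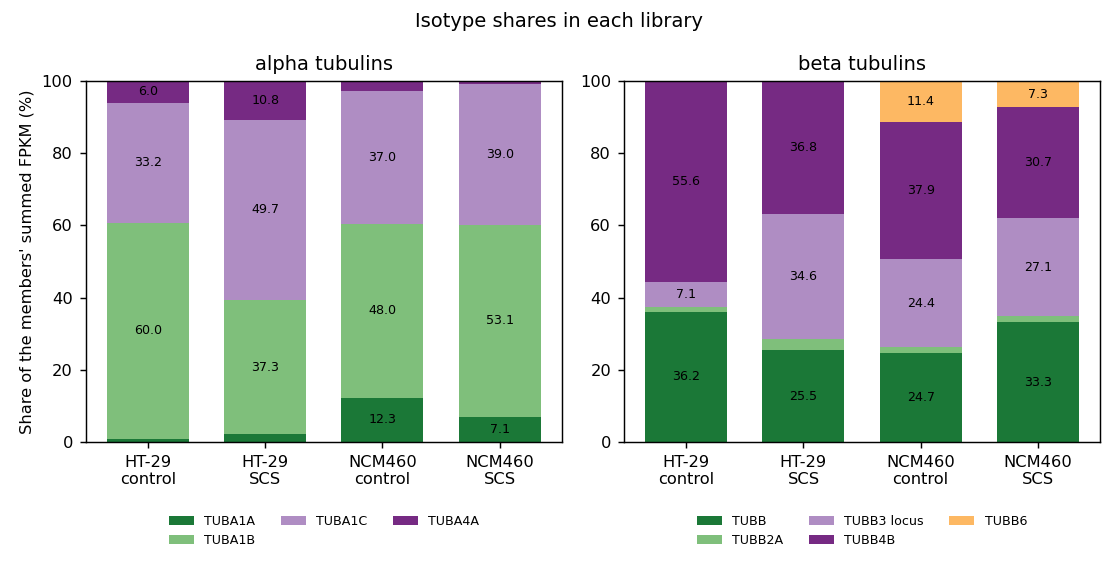
Share of each isotype in the summed FPKM of the measured alpha (left) and beta (right) tubulins, in percent, with 1 bar for each library. TUBA1B falls from 60.0% to 37.3% in HT-29 bars, and TUBB6 and a visible TUBA1A segment appear in the NCM460 bars.

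The size of these shares depends on how FPKM was made. The FPKM value of 1 fragment was not in a fixed ratio between libraries: for TUBB6 it was 1.80 in the NCM460 control and 0.838 with SCS, and for TUBB 0.433 and 0.280. The ratio of SCS to control was 0.467 for TUBB6 and 0.646 for TUBB, beside a median of 0.586 over 3446 loci with at least 20 fragments in both libraries. The TUBB6 share of 11.4% in the NCM460 control was 5.00% when fragments were divided by the longest annotated transcript of each gene. By the same measure TUBA1A took 28.7% of the alpha tubulins in that library and 1.68% in the HT-29 control. The direction of the difference between the lines was the same under each of these measures.

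Summed over the 4 alpha genes, the level went from 356 to 128 FPKM with SCS in HT-29 cells and from 572 to 410 FPKM in NCM460 cells. Summed over the beta genes without the TUBB3 locus, it went from 349 to 98.1 FPKM and from 773 to 335 FPKM. STMN1 amounted to 6.53% of the alpha and beta sum without that locus in the HT-29 control and to 3.73% with SCS. In NCM460 cells it amounted to 10.2% in the control and 14.7% with SCS. The stathmin transcript thus fell more than the tubulin sum in the FPKM of HT-29 cells and less than it in NCM460 cells, without a replicate to judge the difference by. In HT-29 cells STMN1 had the lowest ratio of FPKM per fragment, 0.650, of the members measured. In CPM STMN1 stood at -1.98 there and TUBA1B at -2.0. With the GC trend subtracted, STMN1 and TUBA1B both stood at -0.13 in NCM460 cells, and the other tubulins lower.

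The antisense gene at TUBA1B bears on the alpha values. RP11-386G11.10 had 621 fragments without and 126 with SCS in HT-29, and 148 without and 235 with SCS in NCM460. Counted as 1 locus, TUBA1B and this gene had a log2 fold change with SCS of -2.27 (-2.49 to -2.09) in HT-29 cells and -0.16 (-0.36 to 0.03) in NCM460 cells. Between the control libraries of the lines the joint value was 0.06 (-0.10 to 0.23), against -0.47 for TUBA1B alone. In HT-29 cells the joint count was 1105 fragments without SCS, above the 950 of TUBB, and 266 with SCS, above the 153 of TUBA1C. The joint count was decided on with the values known.

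Further tubulin and stathmin genes were few. Of 14 other tubulin genes 10 had a fragment in any library, and TUBA3C, TUBA3E, TUBA4B and TUBB8 had none. TUBB4A, the beta isotype of oligodendrocytes, followed TUBB6. It had 0 fragments in both HT-29 libraries, and 40 and 21 in NCM460 without and with SCS. Against the floor used for TUBB6 it was 35.0-fold lower in HT-29 cells in controls and 15.6-fold lower with SCS. The log2 fold changes of HT-29 over NCM460 were -5.38 and -4.03, and their counting intervals ended at -4.77 and -3.53. With the GC trend subtracted, TUBB4A stood at -4.46 in controls and -3.82 with SCS, and stayed called lower. Within NCM460 cells its log2 fold change with SCS was -1.35 (-2.24 to -0.61). STMN3, a stathmin relative of neurons, had 4, 0, 48 and 26 fragments (log2 fold change with SCS -1.31, -2.11 to -0.64) in NCM460 cells, and STMN2 and STMN4 had none. With the GC trend subtracted, the log2 fold change with SCS in NCM460 cells was -0.62 for TUBB4A and -0.57 for STMN3, and neither was called.

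TUBG1, the gamma tubulin on which new microtubules start, went from 73 to 37 fragments in HT-29 cells (log2 fold change -1.15, -1.82 to -0.62). It went from 87 to 76 in NCM460 cells (log2 fold change -0.66, -1.13 to -0.21), called lower, and stood at -0.05 with the GC trend subtracted. TUBE1, the epsilon tubulin of centrioles, went from 16 to 44 fragments in HT-29 cells (log2 fold change 1.11, 0.37 to 2.15), and from 0 to 11 in NCM460 cells. Against the floor of 3 fragments the latter was 2.64-fold higher, and the interval of its log2 fold change started at 0.85. The call in HT-29 cells stayed, at 0.83, and that in NCM460 cells was lost when the GC trend was subtracted. TUBG2 had 3, 7, 6 and 9 fragments and was not called with SCS in either line. The row of TUBA8, shared with PEX26, had 63, 57, 20 and 36 fragments and was not called with SCS in either line.

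The genes that fold tubulin, place it and modify it were counted as lists. The lowest and highest gene of a list is named only among those with a mean of at least 10 CPM in that line. The folding list holds the tubulin cofactors, prefoldin and the CCT chaperonin. The counts of each list stand beside 14.8% of all loci called lower and 16.8% higher in HT-29 cells. For NCM460 cells the shares were 13.8% and 15.4%. Subtracting the GC trend gave shares of 15.6% and 14.9% in the former and of 5.7% and 5.59% in the latter. In HT-29 cells 6 of the 20 folding loci were called lower and 1 higher, with a median log2 fold change of -0.33 against 0.07 over all loci. CCT5, a CCT subunit, had the lowest value, -1.07 (-1.34 to -0.84), and PFDN2, a prefoldin subunit, the highest, 1.52 (1.01 to 2.24). In NCM460 cells 9 were called higher and 1 lower, with a median of 0.56 against 0.03. ARL2, whose row it shares with SNX15, was lowest at -1.19 (-1.85 to -0.61), and VBP1, with 1 and 29 fragments, had a log2 fold change of 3.46 (1.79 to 9.74). With the GC trend subtracted, 4 were called higher and 0 lower in NCM460 cells, with a median of 0.03. VBP1 kept its call and ARL2 lost it, at -0.56. In HT-29 cells 8 were then called lower and 1 higher, with a median of -0.43.

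The nucleation list, of the gamma tubulin ring and its anchors, had 3 of 12 loci lower and 0 higher in HT-29 cells, and 3 lower and 3 higher in NCM460 cells. PCNT, which encodes the centrosome scaffold pericentrin, was lowest in HT-29 cells at -1.21 (-1.73 to -0.79), and TUBGCP6 was highest at 0.29 (-0.36 to 0.99). In NCM460 cells MZT2A was lowest at -0.93 (-1.49 to -0.41), and MZT1, with 2 and 23 fragments, had a log2 ratio of 3.05 (1.03 to 6.18). After the GC trend was subtracted 1 was lower and 4 higher in NCM460 cells, and 4 lower and 0 higher in HT-29 cells. MZT2A then stood at -0.15 and MZT1 at 0.97, neither called, while PCNT stood at -1.11 in HT-29 cells and stayed called. Of the severing and depolymerising factors, 3 of 9 were lower and 0 higher in HT-29 cells and 3 of 9 higher and 0 lower in NCM460 cells. KIF18B, a mitotic kinesin, was lowest in both, at -2.56 (-4.24 to -1.88) and -0.43 (-1.06 to 0.18). KIF2A, a depolymerising kinesin whose row holds IPO11 too, was highest among those at 10 CPM or more, at 0.09 (-0.29 to 0.47) and 2.19 (1.29 to 3.51). Subtracting the GC trend left 3 lower in HT-29 cells, but only KIF2A was called in NCM460 cells, higher at 0.97.

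The microtubule-binding proteins had 4 of 16 loci higher and 2 lower in HT-29 cells, and 6 of 18 higher and 4 lower in NCM460 cells. MAP2, a microtubule-associated protein of dendrites, rose in HT-29 cells from 12 to 118 fragments (log2 fold change 2.82, 2.21 to 4.06), the largest of that list. EML4 was lowest there, at -0.86 (-1.08 to -0.65). In NCM460 cells MAP1S was lowest at -1.53 (-2.12 to -1.01) and CKAP2 highest at 2.43 (1.22 to 4.65). Adjusted for the GC trend, 4 were higher and 4 lower in HT-29 cells, MAP2 at 2.66 and EML4 at -1.04 among them. In NCM460 cells 0 were then higher and 1 lower, MAP1S at -0.75, and CKAP2 at 1.12 was not called. Of the enzymes that modify tubulin, 2 of 11 were higher and 3 lower in HT-29 cells, and 0 higher and 4 lower in NCM460 cells. HDAC6, which deacetylates alpha tubulin, was highest in HT-29 cells at 1.28 (0.89 to 1.77), and TTLL12 lowest at -1.34 (-2.01 to -0.84). In NCM460 cells SIRT2, another tubulin deacetylase, was lowest at -1.19 (-2.66 to -0.04). TTLL5, which shares its row with IFT43, was highest there among those at 10 CPM or more, at 0.84 (-0.19 to 2.12). When the GC trend was subtracted all 4 calls in NCM460 cells were lost, SIRT2 standing at -0.53. In HT-29 cells 1 was then higher, HDAC6 at 1.39, and 1 lower, TTLL12 at -1.30. The genes TTC5, SCAPER and CNOT11, which act in the decay of tubulin mRNA when free tubulin is in excess, were not called in either line. TTC5 stood at 0.54 (-0.28 to 1.52) and CNOT11 at -0.17 (-0.66 to 0.31) in HT-29 cells, and at 0.32 (-0.91 to 1.72) and 0.82 (-0.18 to 2.03) in NCM460 cells.

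**Figure D5:**
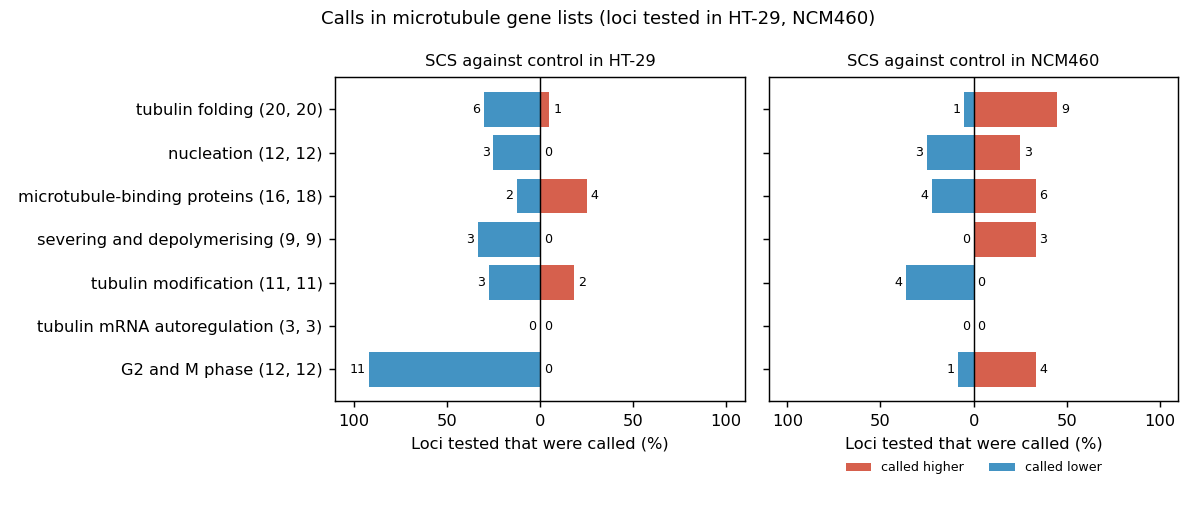
Share of the tested loci of each list that were called higher (red, to the right) or lower (blue, to the left) with SCS, in percent, with the number called beside each bar and the loci tested in HT-29 and NCM460 cells in parentheses. The G2 and M phase list has 11 of 12 loci called lower in HT-29 cells, and the folding list has 9 of 20 called higher in NCM460 cells.

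The loci with the pattern nearest to that of 3 members over the 4 libraries were sought among the 2199 loci that averaged 50 CPM or more, by the distance between log2 CPM values centred on their mean. For STMN1 these were BMP4 at a distance of 0.238, CCND1, which encodes cyclin D1, at 0.244, and LDHA, lactate dehydrogenase A, at 0.267. For TUBB they were TIMELESS, a gene of the replication fork, at 0.154, the unnamed transcript XXbac-BPG252P9.9 at 0.217 and the row of LMNB2, lamin B2, at 0.262. Whether XXbac-BPG252P9.9 shares sequence or fragments with TUBB was not checked. For TUBA1B they were the row of POLD1, the catalytic subunit of DNA polymerase delta, at 0.241, TACC3, a spindle protein, at 0.294 and COTL1 at 0.299. TIMELESS had 119 fragments without and 39 with SCS in HT-29, and 81 without and 65 with SCS in NCM460.

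The labelled cell types were checked against markers. Of 11 colon epithelium genes 10 had fragments. In controls 6 of the 9 tested were called higher and 2 lower in HT-29 than in NCM460 cells, and with SCS the counts were the same. Of all loci 25.3% were called higher and 23.1% lower in controls, and 24.2% and 22.4% with SCS. With the GC trend subtracted the counts were 6 and 2 in controls, beside 17% and 20.3% of all loci. With SCS they were then 7 and 2, beside 21.8% and 24.5%. EPCAM had 492 and 605 fragments in HT-29 against 36 and 126 in NCM460. LGALS4, an intestinal lectin, had 138 and 464 fragments in HT-29 cells and 0 in both NCM460 libraries. The genes called lower were KRT19, with 720 and 375 fragments in HT-29 against 1285 and 1150 in NCM460 cells, and CDX2, an intestinal transcription factor, with 0 and 0 against 14 and 12. The summed level of the mesenchymal list was 5.87 to 8.74 CPM in HT-29 cells and 118 to 130 CPM in NCM460 cells. Most of the latter was SPARC, with 65 and 102 fragments, while VIM had 7 and 4 and CDH2, COL1A2 and COL3A1 had none. Of 8 neuronal genes 3 had fragments, and DCX, SNAP25, ELAVL4, NEFL and GAP43 were at 0 in all 4 libraries. The summed level of the neuronal list was 14.6 to 15.6 CPM in HT-29 cells and 52.7 to 86.0 CPM in NCM460 cells. It came mostly from the row of ELAVL3, with 32, 34, 56 and 27 fragments, and SYT1, with 0, 0, 11 and 30. The ELAVL3 row also holds ECSIT and ZNF653, so its fragments cannot be assigned to ELAVL3. TUBA1A, TUBB6, TUBB4A and STMN3 are thus higher in the libraries that hold more of the mesenchymal list, mostly SPARC, and of SYT1. The part of cell type in these differences was not tested.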

How the data were processed

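RNA-seq was analysed from 4 libraries, 1 for each of HT-29 and NCM460 cells without and with SCS. The submitters' processing notes name bcl2fastq 2.17.1.14, cutadapt 1.9.1, Bowtie2, HTSeq 0.6.1 and hg19, while the coordinates of the table are those of GRCh38. According to the paper, RNA was extracted with TRIzol and Cuffdiff was used. The deposited count columns are a signal, namely fragment counts after the authors' scaling between libraries. Whole fragments came back, within 0.05, for 99.8% to 99.9% of the values above 0, on dividing by the step between them. The FPKM values were deposited by the authors and used as given. The 26 rows without a gene name, 0.0403% to 0.0942% of fragments, were left out. Adjacent rows of identical values were merged, and 1812 of the 18650 loci hold more than 1 gene.

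Fragments were scaled by TMM factors (edgeR 4.0.16) of 1.24 and 1.50 in the HT-29 control and HT-29 with SCS, and 0.578 and 0.935 in the NCM460 pair. Log2 fold changes used a prior count of 2, at a mean of at least 1 CPM. Exact Clopper-Pearson intervals at 95%, and exact Poisson intervals for FPKM, cover counting error only. With 1 library per condition no count test between conditions was run. In counts simulated with counting error only, 200 loci at 50 CPM or more were changed 4-fold in each line. All 200 were called with the right sign in HT-29 and in NCM460, and 247 of 11968 and 283 of 12457 unchanged loci were called. Changes of other sizes, and changes at the lower levels of some members, were not simulated. GC content is that of principal transcripts in GENCODE release 29, found for 98.9% of loci, and trends were lowess fits with a span of 0.3 on loci at 5 CPM or more. Alternatives were DESeq2's size factors, totals of all or of nuclear fragments, the authors' scaling, FPKM, a prior count of 0.5, other filters, thinning to 507692 nuclear fragments, and trends on GC, expression or length. Genes beyond the 10 were named by rule: other tubulins and stathmins at 5 CPM or more, the highest and lowest gene of each pathway list at 10 CPM or more in each line, and the 3 nearest patterns of STMN1, TUBB and TUBA1B. Single markers, VIM and genes at 0 were picked with their values in view. The members and lists were chosen with earlier results of these data known. The coding ends of the other isotypes are not reported here.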

Additional observations from a re-analysis of the deposited data

Results flagged for a closer look

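The TUBB3 locus was called in opposite directions in the lines, with a log2 fold change with SCS of 0.62 in HT-29 cells and -1.16 in NCM460 cells. It was flagged for this difference between cell lines, which was not tested. The row also holds TCF25 and MC1R. With the GC trend subtracted the values were 0.65 and -0.42, and the second was not called. The first was not called with nuclear totals, at 0.47, or with the expression or the length trend subtracted, at 0.57 and 0.58.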

How the results depend on the processing

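Of 471 log2 fold changes of single members under alternatives, 401 stayed inside the counting interval of the reported value, 65 left it, and 5 called values changed sign, all between the control libraries: with library totals only TUBA1C stood at 0.21, TUBB at 0.41, TUBB4B at 0.45 and STMN1 at 0.22, and with the GC trend subtracted TUBB4B stood at 0.0922. Of the counts of members called, those with SCS in both lines kept within 1.5 times the reported number under every alternative. In HT-29 cells the 6 called lower stayed at 5 or 6, and the 1 called higher became 0 with nuclear totals, and with the expression or the length trend subtracted. In NCM460 cells the 5 called lower became 8 under the scaling of DESeq2 and 8 under that of the authors, 0 with library totals (and 1 higher) and 1 with the GC trend subtracted. Between the controls, the 8 called lower became 3 with library totals, 4 with nuclear totals and 5 with the GC trend subtracted, and the 1 called higher became 2 with library totals and 0 with FPKM. For these the cause was not tested. The TUBB6 share difference of 11.4 percentage points in controls and 7.29 with SCS became 5.00 and 4.23 per kilobase, 4.68 and 3.82 in fragments, and 15.1 and 10.0 without the TUBB3 locus. The TUBA1A difference of 11.6 and 4.96 became 27.0 and 16.9 per kilobase and 18.9 and 11.4 in fragments. No paired analysis was possible because each condition has 1 library, and no library could be left out. Depth limits TUBA1A and TUBB2A in HT-29 cells and TUBA4A and TUBB2A in NCM460 cells, each with 24 fragments or fewer in every library of that line.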
